A study of Solanum lycopersicum var. cerasiforme with 6 samples.

Results

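TCP proteins are plant transcription factors that set how long cells of a young organ go on dividing. The group named CIN after CINCINNATA of snapdragon moves cells of young leaves from division to differentiation. LANCEOLATE is the tomato CIN gene whose gain of function turns compound leaves into simple ones, and its transcript is kept low in young leaf margins by the microRNA miR319. The BRANCHED1 genes belong to another branch of the family and hold back the outgrowth of axillary buds, a role for which BRC1b is the stronger of the tomato pair. Inflorescences of tomato are built by repeated formation of new meristems beside old ones.

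The genes described here are LANCEOLATE (Solyc07g062680.3), a pair of other CIN-type genes (Solyc12g014140.3 and Solyc07g053410.4), BRC1a (Solyc03g119770.4) and BRC1b (Solyc06g069240.2). They were chosen by identifier and are 5 of the 34081 rows in the count files, with 1 row each. All 5 had enough reads to be among the 20942 genes tested. The files pair no identifier with a name. The RefSeq gene table of the assembly SLM_r2.1 lists the symbols lanceolate, BRC1a and BRC1b on the chromosomes that the identifiers carry. It lists TCP3 on chromosome 12 and TCP10 ahead of lanceolate on chromosome 7, and these names are used below for Solyc12g014140.3 and Solyc07g053410.4, from their positions alone.

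RNA was sequenced from young inflorescences of F3 tomato plants (Solanum lycopersicum var. cerasiforme), in which no floral bud had reached 2 mm in length. The plants carried either the derived allele, fw2.3-D, or the wild-type allele, fw2.3-WT, of the fruit weight locus fw2.3, and grew in one greenhouse in random order without pruning. Each library was a pool of equal RNA from 2 plants of one genotype, and there were 3 pools per genotype. Plant age, and the rest of the genotype of these F3 plants, are not given in the labels. Total counts ran between 25094534 and 28504360 in fw2.3-D and between 22303511 and 24570493 in fw2.3-WT, so sequencing depth also differed between the genotypes without overlap. As a check of the tissue, all 10 genes of a list of inflorescence and floral organ regulators were detected, at means of 29.9 to 149 RPKM (reads divided by gene length and by the total count of the library). Their summed level was 720 to 838 RPKM in fw2.3-D and 759 to 795 RPKM in fw2.3-WT. The 4 ripening fruit genes summed to 2.19 to 3.87 RPKM in fw2.3-D and to 1.87 to 3.10 RPKM in fw2.3-WT, with the polygalacturonase gene PG2 at 0 counts in every pool. In RNA from whole inflorescences, fewer cells that use a gene and less RNA of it per cell cannot be told apart.

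LANCEOLATE and TCP10 had higher levels in all fw2.3-D pools than in any fw2.3-WT pool, with fitted fold changes of 1.16 and 1.31. TCP3 had nearly equal means in the genotypes. Both BRANCHED1 genes had lower means in fw2.3-D, with pools that overlapped. None of these differences passed the test across all genes. In that test (edgeR's quasi-likelihood test, with Benjamini-Hochberg adjustment over 20942 genes), 0.0239% of all genes were called between the genotypes at an adjusted p under 0.05, and 0 of the 5 TCP genes were among them. DESeq2 and limma also called 0 of the 5. At an unadjusted p under 0.05 the count was again 0 by edgeR, DESeq2 and limma, where edgeR put 3.56% of all tested genes under it.

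**Figure D1:**
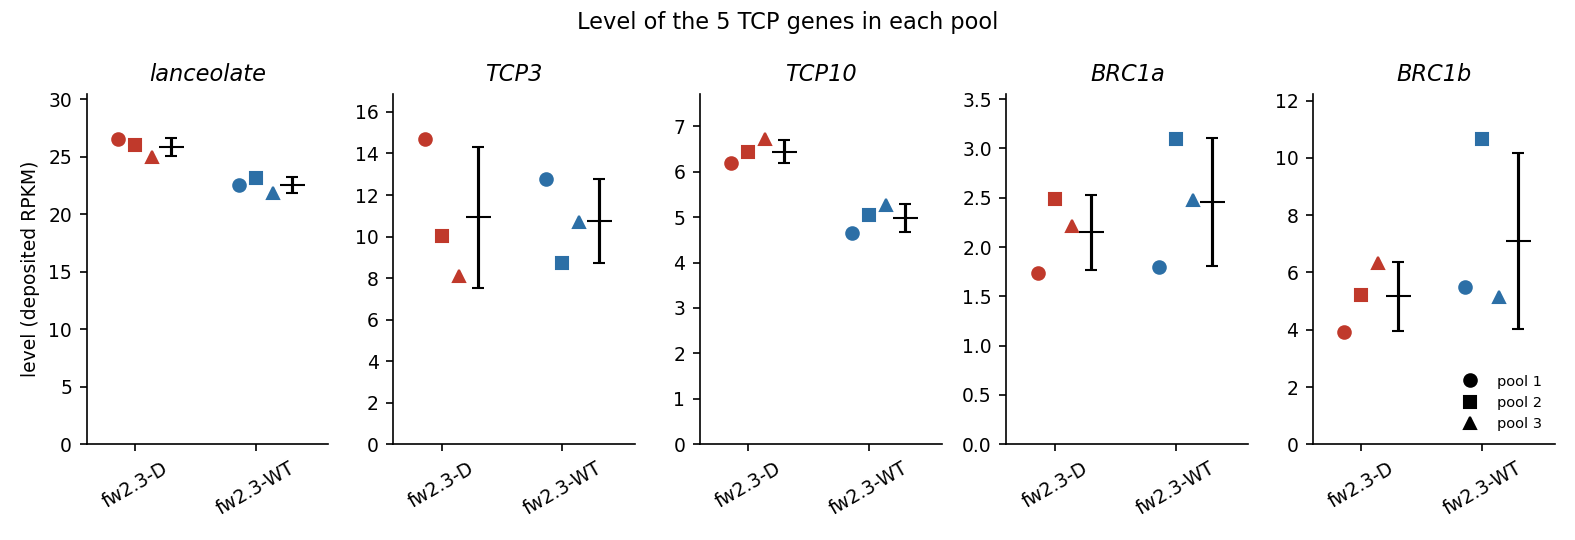
Level of each TCP gene in deposited RPKM on the vertical axis, which starts at 0 and differs between panels, with fw2.3-D at left and fw2.3-WT at right. Symbols are the pools by replicate number, and black bars are the mean ± SD of 3 pools. The pools of the genotypes are apart for lanceolate and TCP10 and overlap for the other 3 genes.

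The levels per length put LANCEOLATE first among the 5. Its mean over the 6 pools was 24.2 RPKM, above 70.0% of the tested genes. TCP3 followed at 10.8 RPKM, then BRC1b at 6.13, TCP10 at 5.71 and BRC1a at 2.301 RPKM. The lowest LANCEOLATE pool, at 21.9 RPKM, stood above the highest TCP3 pool, at 14.7 RPKM. TCP3 exceeded TCP10 in all 6 pools and BRC1b in 5 of 6. The order of BRC1b and TCP10 was not fixed: BRC1b was the higher of the pair in 0 of 3 fw2.3-D pools and in 2 of 3 fw2.3-WT pools. BRC1a was the lowest of the 5 in every pool, above 14.5% of the tested genes. The gene lengths behind these RPKM, computed from the deposited counts and RPKM, were 1203 bases for LANCEOLATE, 1185 for TCP3, 944 for TCP10, 1044 for BRC1a and 1221 for BRC1b.

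LANCEOLATE, which restrains growth at the margins of leaves, stood at 26.5, 26.0 and 25.01 RPKM in the fw2.3-D pools, against 22.6, 23.2 and 21.9 RPKM in the fw2.3-WT pools. The genotypes did not overlap, and the pools within each were close. The means were 25.9 ± 0.772 RPKM in fw2.3-D and 22.5 ± 0.657 RPKM in fw2.3-WT (SD, n = 3 each). The log2 fold change was 0.22 (SE 0.11, edgeR adjusted p = 0.948), with a 95% interval from -0.034 to 0.47, which is 0.977-fold to 1.39-fold. Behind it were 825, 893 and 755 reads in fw2.3-D, against 667, 622 and 630 reads in fw2.3-WT. Refitted without any one pool, it stayed between 0.18 and 0.25.

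TCP10, another CIN-type gene, showed the larger difference of these. It had 6.19, 6.43 and 6.71 RPKM in the fw2.3-D pools, against 4.66, 5.03 and 5.26 RPKM in the fw2.3-WT pools, again without overlap. The means were 6.44 ± 0.263 RPKM in fw2.3-D and 4.99 ± 0.307 RPKM in fw2.3-WT (SD, n = 3 each). Its log2 fold change was 0.39 (SE 0.19, edgeR adjusted p = 0.948), with a 95% interval from -0.033 to 0.82. The pools within a genotype were more alike than counting error alone would give on average. The coefficient of variation of TCP10 in CPM (the count as a rate of the library total, with TMM factors, which correct that total for composition) was 2.56% in fw2.3-D and 3.83% in fw2.3-WT. Counting error at its mean count was 8.57%. The test takes its spread from all genes as well as from these pools.

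Of the 5 genes, 2 had pools that did not overlap, both with higher values in fw2.3-D. Over all tested genes, 9.49% had pools that did not overlap, and 5.15% did so with higher values in fw2.3-D. The 5 had a median log2 fold change of 0.052, and over all tested genes it was 0.00083. From the 10th to the 90th percentile, the log2 fold changes of all tested genes lay between -0.29 and 0.29. LANCEOLATE lies inside that range, and TCP10 and BRC1b lie outside it at opposite ends.

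TCP3, the CIN-type gene of chromosome 12, varied more between pools than between genotypes. It had 14.7, 10.01 and 8.10 RPKM in the fw2.3-D pools, against 12.8, 8.74 and 10.7 RPKM in the fw2.3-WT pools. The first pool of each genotype was higher than all the other pools, and the genotypes overlapped. The means were 10.9 ± 3.39 RPKM in fw2.3-D and 10.7 ± 2.02 RPKM in fw2.3-WT (SD, n = 3 each). On the log2 scale the fold change was 0.052 (SE 0.24, edgeR adjusted p = 0.985) and had a 95% interval from -0.49 to 0.60, which is 0.711-fold to 1.51-fold. Its sign depended on single pools. The log2 fold change was -0.25 without fw2.3-D replicate 1 and -0.075 without fw2.3-WT replicate 2, and it was 0.24 without fw2.3-D replicate 3 and 0.22 without fw2.3-WT replicate 1.

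**Figure D2:**
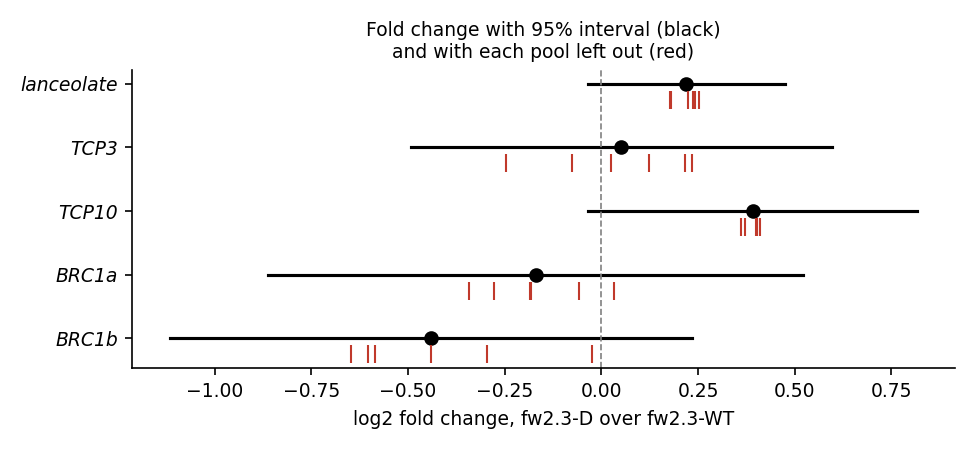
Log2 fold change of each TCP gene, fw2.3-D over fw2.3-WT, on the horizontal axis. Black points and lines are the estimate from all 6 pools and its 95% interval, and red ticks are the estimates with each pool left out. All 5 intervals include 0, and the red ticks stay above 0 for lanceolate and TCP10.

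BRC1b, the BRANCHED1 gene with the stronger effect on shoot branching in tomato, had 3.93, 5.23 and 6.33 RPKM in the fw2.3-D pools. In the fw2.3-WT pools it had 5.50, 10.6 and 5.13 RPKM. A single pool, fw2.3-WT replicate 2, stood far above all the others, and the remaining fw2.3-WT pools lay within the range of the fw2.3-D pools. The means were 5.16 ± 1.204 RPKM in fw2.3-D and 7.09 ± 3.09 RPKM in fw2.3-WT (SD, n = 3 each). The log2 fold change was -0.44 (SE 0.30, edgeR adjusted p = 0.948), with a 95% interval from -1.12 to 0.23. Without fw2.3-WT replicate 2 it was -0.024 (SE 0.24, edgeR adjusted p = 1.00), so the lower mean in fw2.3-D rests on that pool.

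BRC1a, its close relative, had few reads, 47, 74 and 58 in fw2.3-D, against 46, 72 and 62 in fw2.3-WT. These gave 1.74, 2.49 and 2.21 RPKM in the fw2.3-D pools, against 1.79, 3.09 and 2.48 RPKM in the fw2.3-WT pools. The first pool of each genotype was its lowest and the second its highest, and the genotypes overlapped. Means were 2.15 ± 0.377 RPKM in fw2.3-D and 2.46 ± 0.650 RPKM in fw2.3-WT (SD, n = 3 each). On the log2 scale the fold change was -0.17 (SE 0.31, edgeR adjusted p = 0.961), its 95% interval ran from -0.86 to 0.52, and it was 0.033 without fw2.3-WT replicate 2. Counting error alone is 12.9% of its level at this depth, and the 6 pools varied by 20.7% in CPM.

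The balance among the genes described here was also compared within each branch, as a description without a test. The CIN-type sum covers LANCEOLATE, TCP3 and TCP10 only, so it gives no share of the whole branch. LANCEOLATE made up 56.0, 61.3 and 62.8% of this sum in RPKM in the fw2.3-D pools, against 56.4, 62.7 and 57.8% in the fw2.3-WT pools. The first pools were alike in both genotypes, where the share of TCP3 was highest, at 31.0% in fw2.3-D and 31.9% in fw2.3-WT. TCP10 held 13.1, 15.1 and 16.9% of that sum in fw2.3-D, against 11.6, 13.6 and 13.9% in fw2.3-WT. BRC1b exceeded BRC1a in all 6 pools, with ratios of 2.26, 2.10 and 2.86 in fw2.3-D, against 3.07, 3.44 and 2.07 in fw2.3-WT. The summed level of these CIN-type genes was 47.4, 42.5 and 39.8 RPKM in fw2.3-D, against 40.0, 37.0 and 37.8 RPKM in fw2.3-WT, which overlapped in 1 pool of each genotype. The sum was 8.36, 5.51 and 4.66 times that of the BRANCHED1 genes in fw2.3-D, and 5.48, 2.69 and 4.97 times in fw2.3-WT.

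**Figure D3:**
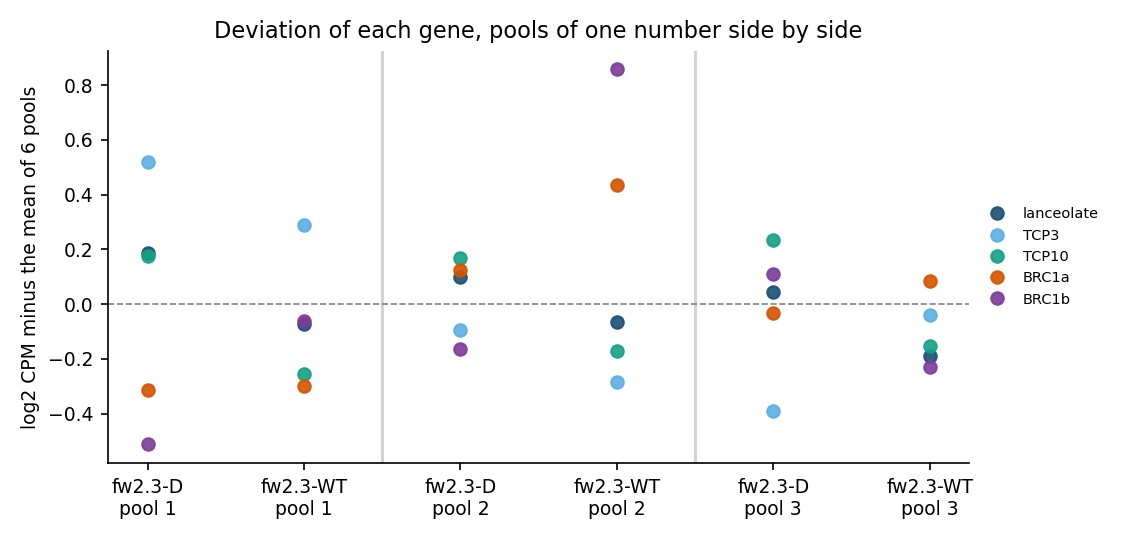
Deviation of each TCP gene from its own mean over the 6 pools, in log2 CPM with TMM factors on the vertical axis, with pools of the same replicate number side by side. TCP3 is high and BRC1a low in the first pool of both genotypes, and BRC1b is highest in fw2.3-WT pool 2.

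The first pools set TCP3 and BRC1a apart from the other genes. TCP3 was higher in both first pools than in the other 4, a pattern shown by 11.9% of all tested genes. BRC1a was lower in both first pools, as were 9.97% of all tested genes. The labels name no difference in handling between the first and the later pools, and its part in these levels was not tested. With a term for the first pools, chosen after the data were seen, the log2 fold change of TCP3 was 0.026 (SE 0.16) and that of BRC1a was -0.16 (SE 0.30). Those of LANCEOLATE and TCP10 were 0.22 (SE 0.11) and 0.39 (SE 0.20). No adjusted p of these passed (edgeR, 0.836 to 0.980).

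Whether the genes varied together was examined over the 6 pools for the 10 pairs, with exact permutation tests (two-sided) and adjustment over the pairs. No pair passed, and the smallest adjusted p was 0.301 (exact permutation test). BRC1a and BRC1b had r = 0.77 (exact permutation p = 0.0708, adjusted 0.301) and rho = 0.54 (exact permutation p = 0.297, adjusted 0.731). Without the 2 pools farthest from the median of BRC1a, fw2.3-D replicate 1 and fw2.3-WT replicate 2, r was -0.43. The positive r was thus not kept, but the pools that remain are too few to say where the relation rests. TCP3 and BRC1a had r = -0.76 (exact permutation p = 0.0750, adjusted 0.301) and rho = -0.66 (exact permutation p = 0.175, adjusted 0.583). Without the first pools of both genotypes r was -0.017. TCP3 and BRC1b had r = -0.67 (exact permutation p = 0.139, adjusted 0.347) and rho = -0.77 (exact permutation p = 0.103, adjusted 0.583). For this pair r was -0.59 without the same first pools. For the pair of LANCEOLATE with TCP10 the pools fall into 2 clusters, the genotypes, so the pooled r of this pair is not given. The 3 pools of a genotype are too few for an r within it.

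For each gene, the most similar of 13465 other genes, each averaging 10 CPM or more, was sought by Pearson's r of log2 CPM over the 6 pools. With so few pools, high values arise for many genes, so they are given as a description. For LANCEOLATE and TCP10, whose genotypes did not overlap, r also carries the difference between the genotypes. LANCEOLATE was most like Solyc08g074630.2 (r = 0.98), and 70 genes had r above 0.9 with it. For TCP10 the nearest was Solyc02g088800.2 (r = 0.98), with 55 genes above 0.9. TCP3 was most like Solyc05g007710.3 (r = 0.998) and had 394 genes above 0.9, and BRC1a was most like Solyc12g095780.2 (r = 0.996) with 201. BRC1b was most like Solyc01g095690.2 (r = 0.996) with 254. As shares of the 13465 genes, these counts were 0.520% for LANCEOLATE, 0.408% for TCP10, 2.93% for TCP3, 1.49% for BRC1a and 1.89% for BRC1b. LANCEOLATE and TCP10 also varied least over the 6 pools in CPM, by 9.43% and 15.1%. The others varied by 20.7% to 37.9%. Whether the counts of close matches follow from this spread was not tested.

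Since the libraries did not keep strand, reads of an overlapping neighbour could be counted with a gene. The loci listed just before and after each gene were therefore compared. Of 10 such loci, 9 were tested, and in edgeR none was called or had pools that did not overlap, with log2 fold changes from -0.27 to 0.15. Of all tested genes, 0.0239% were called and 9.49% had pools that did not overlap, so a count of none among 9 is near those shares. Beside LANCEOLATE, the locus before had 0 RPKM in both genotypes, and the locus after had 0.396 RPKM in fw2.3-D and 0.460 RPKM in fw2.3-WT. The loci beside TCP10 had 5.26 and 1.46 RPKM in fw2.3-D, against 4.78 and 1.38 RPKM in fw2.3-WT, with log2 fold changes of 0.15 and 0.11. Whether these loci overlap the TCP genes was not analysed here.

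Genes that act with LANCEOLATE or around BRANCHED1 were taken as lists by identifier, and those named carry the RefSeq symbol that fits their position, except goblet, which that table gives as a synonym of NAM. Both lists were chosen with earlier results of these data known, so their counts of directions are descriptions without a test. Of 9 genes reported to act with LANCEOLATE in tomato, all were tested and none was called, with 1 higher and 8 lower in fw2.3-D. Over all tested genes, 50.2% were higher in fw2.3-D. The list held gibberellin 20-oxidases, which make active gibberellin, FRUITFULL-type MADS-box genes, class I KNOX genes, which keep meristem cells undifferentiated, and the boundary gene goblet. Its median log2 fold change was -0.22, against 0.00083 over all tested genes, and its members ran from -0.63 to 0.51. GA20OX1, at 2.83 RPKM in fw2.3-D and 4.48 RPKM in fw2.3-WT, was the lowest (log2 fold change -0.63, SE 0.38, edgeR adjusted p = 0.948). The other locus listed as a 20-oxidase, Solyc06g035530.3, was the single higher member, at 4.32 RPKM in fw2.3-D and 3.08 RPKM in fw2.3-WT (log2 fold change 0.51, SE 0.25, edgeR adjusted p = 0.948), so these estimates had opposite signs. FUL2 was the single member whose pools did not overlap, at 16.3 RPKM in fw2.3-D and 19.5 RPKM in fw2.3-WT (log2 fold change -0.23, SE 0.14, edgeR adjusted p = 0.948). Of all tested genes, 4.34% were lower in fw2.3-D without overlap. Goblet, listed near LANCEOLATE on chromosome 7, had 30.8 RPKM in fw2.3-D and 31.4 RPKM in fw2.3-WT. It counts as lower at a log2 fold change of -0.0084 (SE 0.15). Leaving out both first pools gave 6 of the 9 lower in fw2.3-D, with a median of -0.083 on the log2 scale.

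A mixed list of 9 genes tied to shoot architecture held genes of axillary meristem formation and of strigolactone and abscisic acid synthesis, the florigen gene SFT, and SP, which opposes florigen. Of these, 5 were tested, SP among them and SFT not, and none was called. The other 4 had too few reads, among them the strigolactone gene CCD7, with 0 counts in every pool. Taking 3 counts as the limit that a count of 0 allows, for counting error alone, such a gene could still reach 0.105 to 0.135 CPM depending on the pool. All 5 tested had lower values in fw2.3-D, and the list median was -0.45 on the log2 scale. Over all tested genes, 50.2% were higher in fw2.3-D. SP was the nearest to 0, at 6.97 RPKM in fw2.3-D and 7.58 RPKM in fw2.3-WT (log2 fold change -0.10, SE 0.31, edgeR adjusted p = 0.974). In 3 of the 5 the pools did not overlap, against 4.34% of all tested genes in that direction. One of these was LS, the GRAS gene lateral suppressor that is needed to form axillary meristems. It stood at 3.07 RPKM in fw2.3-D and 4.25 RPKM in fw2.3-WT (log2 fold change -0.45, SE 0.23, edgeR adjusted p = 0.948). The others were Solyc11g069030.3, at 9.25 RPKM in fw2.3-D and 13.0 RPKM in fw2.3-WT, and Solyc08g062950.4, at 6.34 RPKM in fw2.3-D and 7.65 RPKM in fw2.3-WT. Solyc11g069030.3 was the one member with an unadjusted p under 0.05 in edgeR. The median of the list was -0.14 without fw2.3-WT replicate 2, the pool that was highest in BRC1b, and -0.29 without fw2.3-D replicate 1, where 4 of 5 were lower.

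Other TCP genes were taken as a remembered list of 22 loci, which may not hold the whole family. On chromosome 6 the RefSeq table lists 4 TCP genes, where this list and the genes described here together hold 3. Of the 22, 15 lie on chromosomes where that table lists at least as many TCP genes as are held here, and were used. Of these 15, 14 were tested and none was called or had pools that did not overlap. Over all tested genes, 9.49% had pools that did not overlap, so a count of none among 14 is near that share. The share of all tested genes that were higher in fw2.3-D was 50.2%. This list too was chosen with earlier results of these data known, so its count of directions is a description without a test. Among the 14, a single locus was higher in fw2.3-D and 13 were lower. Their log2 fold changes lay between -0.37 and 0.014, around a median of -0.15. LANCEOLATE, TCP10 and TCP3, at 0.22, 0.39 and 0.052, lie above that range, and BRC1b, at -0.44, lies below it. None of these genes passed the test. At an unadjusted p under 0.05 in edgeR there were 0 of the 14. The 7 loci not used, on chromosomes 5, 8 and 10, spread more widely, between -1.01 and 0.11, with 5 lower and 2 higher in fw2.3-D and none called. TCP3 and both BRANCHED1 genes lie inside the range of these 7, and LANCEOLATE and TCP10 lie above it. One of the 7, Solyc05g009900.3, had pools that did not overlap, at 2.34 RPKM in fw2.3-D and 3.79 RPKM in fw2.3-WT (log2 fold change -0.67, SE 0.27, edgeR adjusted p = 0.948, unadjusted p = 0.0332). Of all tested genes, 4.34% were lower without overlap and 3.56% had an unadjusted p under 0.05. In levels per length, 4 of the 15 exceeded LANCEOLATE and 1 was below BRC1a, with means from 0.440 to 62.7 RPKM. The 7 loci not used also reached past both genes. Their highest had 38.4 RPKM in fw2.3-D and 39.6 RPKM in fw2.3-WT, above LANCEOLATE. Their lowest had 0.788 RPKM in fw2.3-D and 1.61 RPKM in fw2.3-WT, below BRC1a. The summed level of the 15 was 271 to 325 RPKM in fw2.3-D and 325 to 341 RPKM in fw2.3-WT. Without fw2.3-D replicate 1, 9 of the 14 were lower in fw2.3-D, at a median of -0.092, and leaving out both first pools gave the same count and a median of -0.11.

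**Figure D4:**
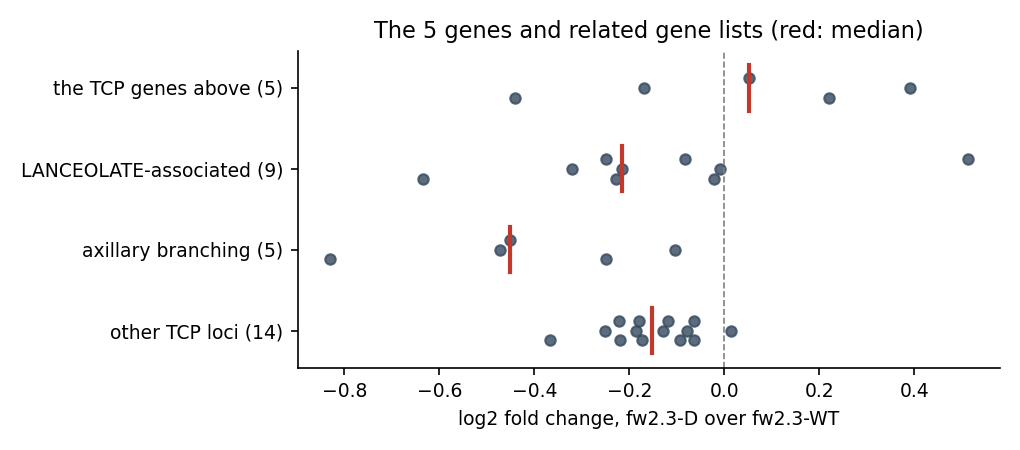
Log2 fold change, fw2.3-D over fw2.3-WT, of the tested genes in each list on the horizontal axis, with the number tested in brackets. Points are genes and red bars are medians. The 14 other TCP loci lie between -0.37 and 0.014. LANCEOLATE, TCP10 and TCP3 lie to their right at 0.22, 0.39 and 0.052, and BRC1b lies to their left at -0.44. The 7 TCP loci not used are not drawn. They lie between -1.01 and 0.11, a range that takes in TCP3 and BRC1b.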

How the data were processed

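The authors deposited 1 file of whole-number read counts per gene for each pool, not normalized, and a table of RPKM for all pools. The submitters' processing notes list cutadapt, STAR and edgeR but give neither their roles nor versions. The libraries were not strand-specific, per the labels' protocols. Neither the counting program nor its treatment of reads with several matches is stated in these sources, so reads shared with related TCP genes cannot be assessed. Each column was assigned to its pool by its name. Identifiers in the lists come from published assignments as remembered. Of 34081 identifiers, 0 matched the RefSeq table (SLM_r2.1), but 26 of 26 loci with a symbol there were on the same chromosome, and 34 of 34 pairs on one chromosome were in the same order. That checks position only.

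The gene test was edgeR's glmQLFTest (edgeR 4.0.16, R 4.3.3), two-sided, with genotype as the single term, TMM scaling and rows kept by filterByExpr at a minimum count of 10. It was checked on simulated data. Calls needed an adjusted p under 0.05 (Benjamini-Hochberg). For the SE, the log2 fold change was divided by the root of F, and intervals use the test's degrees of freedom. Log2 CPM for patterns used a prior count of 2. DESeq2 1.42.0 and limma 3.58.1 on log2(RPKM + 1) and log2(RPKM + 0.1) were alternatives, with other filters and factors and each pool left out. By rule, all 5 genes, the gene most like each and the adjacent loci were described. PG2, GA20OX1, FUL2, goblet, CCD7, LS, SFT, SP, Solyc06g035530.3, the other 2 non-overlapping branching loci and Solyc05g009900.3 were named after their values were seen. The genes and lists were chosen with earlier results of these data known. Labels do not say more on how plants were assigned to pools, so p-values measure the spread between pools of 2 plants. No 2 pools agreed within sampling noise (chi-square per gene of 12.2 to 48.2).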

Additional observations from a re-analysis of the deposited data

How the results depend on the processing

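Across 80 refits of the 5 TCP genes, 0 gave a call, and 75 kept the direction. The log2 fold change of LANCEOLATE ran from 0.18 to 0.25 and that of TCP10 from 0.32 to 0.41 over their 16 alternatives, and BRC1b lay between -0.65 and -0.024. Without any one pool, TCP3 lay between -0.25 and 0.24 and BRC1a between -0.34 and 0.033. TCP3 also turned to -0.00038 with limma on log2(RPKM + 0.1) and to -0.084 when both first pools were left out. The count of called genes over the whole table, 5, was 10 with the replicate block, 13 with no filter and 48 by DESeq2. It was 21 when both first pools were left out and 13 with a term for them, and without any one pool it lay between 0 and 18. In limma it was 0 at a pseudocount of 1 (774 genes at an unadjusted p under 0.05) and 0 at a pseudocount of 0.1 (746 genes). The cause of these changes was not tested. The replicate numbers did not pair the pools throughout. Same-numbered deviations correlated at 0.357 for the first pools, -0.085 for the second and 0.0613 for the third, and own numbers gave the best correlation for 2 of 6 pools. The block changed no call of the 5 genes. Of the 10 correlations, 0 passed on log2(RPKM + 1) or without fw2.3-WT replicate 2. Without the 2 farthest pools, the r of LANCEOLATE with TCP3 (0.31) was -0.39, that of LANCEOLATE with BRC1a (-0.36) was 0.063, and that of BRC1a with BRC1b was -0.43. TCP10 with BRC1a (-0.17) was 0.20 without fw2.3-WT replicate 2. The term for the first pools, the correlations without fw2.3-WT replicate 2 and the list counts under each alternative were chosen after the data were seen. BRC1a had the fewest reads of the 5, at 46 to 74 counts, and the largest counting error, 12.9%. Its SE in the main fit, 0.31, was close to the 0.30 of BRC1b, which had 124 to 290 counts.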
